A study of Mus musculus with 12 samples.

Results

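Circadian clock output genes were followed here as a set of 10 named genes, Per1, Per2, Per3, Dbp, Tef, Hlf, Npas2, Nfil3, Cry1 and Cry2. A gene was measured by the probe sets that carry its symbol and no other, averaged per gene, and 9 of the 10 had such a probe set among the 19935 genes of the arrays. Npas2, a partner of BMAL1 that can stand in for CLOCK, had none, and its signal was not analysed here. The arrays were 12 Affymetrix mouse gene arrays whose RNA the labels assign to epithelial cells of the colon, with 3 arrays in each of 4 groups of male mice aged 8 to 10 weeks. Wild-type mice (WT) drank normal water or 4% w/v dextran sulfate sodium (DSS), a polymer that injures the colon lining, for 10 days, and their Villin-Claudin-2 transgenic littermates (Cl-2TG in the labels, TG here) drank the same. The name of the transgene joins villin, found in the brush border of intestinal epithelium, with claudin-2, which makes cation and water pores at tight junctions. No label ties an array to 1 animal, so p-values measure the spread between these arrays, which may in part be technical. They also give no time of day of tissue collection.

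The circadian clock is a feedback loop of transcription. CLOCK or NPAS2 pairs with BMAL1 (Arntl) on DNA elements called E-boxes and drives the Per and Cry genes, whose proteins then return to the nucleus and repress that pair. The same pair drives the nuclear receptors REV-ERB alpha and beta (Nr1d1, Nr1d2), which repress Arntl and other genes, and the PAR bZIP activators DBP, TEF and HLF. These activators bind D-box elements, and NFIL3 (also called E4BP4) binds the same elements as a repressor, so DBP and NFIL3 are known to peak at opposite times of day. In the gut the clock runs in epithelial cells and in immune cells and times cell division, nutrient uptake and defence. Nfil3 is in addition known as an immune gene, induced by cytokines and needed for natural killer and other innate lymphoid cells.

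The promoters of 5 members are shown because they carry, or lack, the elements that join the set into one loop. Each is the 250 bases before a RefSeq gene start (assembly GRCm38.p6), read 5′ to 3′ on the gene's own strand, and capitals mark matches to an E-box (CACGTG), its variant the E-prime-box (CACGTT), a D-box (TTATGTAA or TTACGTAA) or a cyclic AMP response element, CRE (TGACGTCA), on either strand. No 2 matches overlapped in these windows.
Cry1 (chr10:85185055-85185304, minus strand): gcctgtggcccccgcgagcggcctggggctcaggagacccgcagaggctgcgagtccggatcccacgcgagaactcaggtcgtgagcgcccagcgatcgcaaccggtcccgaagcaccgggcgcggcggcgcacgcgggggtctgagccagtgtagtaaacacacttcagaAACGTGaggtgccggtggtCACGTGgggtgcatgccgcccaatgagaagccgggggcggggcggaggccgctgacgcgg
Tef (chr15:81802423-81802672, plus strand): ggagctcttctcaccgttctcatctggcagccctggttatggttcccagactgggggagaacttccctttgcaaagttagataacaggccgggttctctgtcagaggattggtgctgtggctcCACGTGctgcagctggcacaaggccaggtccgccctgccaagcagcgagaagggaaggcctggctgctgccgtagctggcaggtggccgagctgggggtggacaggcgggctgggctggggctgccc
Per3 (chr4:151044666-151044915, minus strand): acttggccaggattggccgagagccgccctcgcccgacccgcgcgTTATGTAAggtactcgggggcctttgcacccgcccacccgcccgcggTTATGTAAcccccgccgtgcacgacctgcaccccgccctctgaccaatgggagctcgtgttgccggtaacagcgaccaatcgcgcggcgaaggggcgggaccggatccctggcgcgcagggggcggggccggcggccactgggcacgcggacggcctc
Dbp (chr7:45704997-45705246, plus strand): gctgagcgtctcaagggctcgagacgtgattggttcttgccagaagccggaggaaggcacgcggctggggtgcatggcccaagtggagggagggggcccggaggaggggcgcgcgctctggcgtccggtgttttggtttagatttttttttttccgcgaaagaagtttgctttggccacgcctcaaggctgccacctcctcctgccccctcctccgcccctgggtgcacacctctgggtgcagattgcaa
Nfil3 (chr13:52981040-52981289, minus strand): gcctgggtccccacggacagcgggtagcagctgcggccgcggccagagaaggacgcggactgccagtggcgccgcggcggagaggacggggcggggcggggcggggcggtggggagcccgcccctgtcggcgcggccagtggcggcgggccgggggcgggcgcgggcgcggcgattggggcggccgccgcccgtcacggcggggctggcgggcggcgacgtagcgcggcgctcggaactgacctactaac
Cry1 held an E-box 60 bases and an E-prime-box 79 bases before its start. Tef held an E-box 127 bases before the start shown and another 138 bases before a second start at chr15:81811164-81811413. Per3 held 2 D-boxes, 205 and 158 bases before its start. Per1 held an E-box 166 bases before 1 of its 2 starts, Cry2 an E-prime-box 166 bases before its start, and Hlf a CRE 9 bases before its start. The windows of Dbp, Nfil3 and Npas2 held none of these letters, which says nothing of elements elsewhere in those genes. The promoter table matched 9 of the 10 members, Npas2 among them and Per2 not, with 11 windows. Of these 11 windows, 4 (36.4%) held an E-box, against 6.02% of all 32851 windows of the same length. The 4 windows belonged to Cry1, Per1 and Tef, with both Tef starts counted. The members were chosen as clock genes, so this share is no test of the loop. A D-box stood in 1 of the 11 (9.09%) against 0.931% of all, an E-prime-box in 2 of 11 (18.2%) against 3.85%, and a CRE in 1 of 11 (9.09%) against 1.55%. These matches are descriptions of letters and not of bound sites.

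Each value is a log2 signal minus its own probe set's median across the 12 arrays, so it sets one array against another without an absolute level, and levels of different genes cannot be ranked. The arrays under DSS were not alike. In WT DSS replicate 2, a distance of over 1 log2 unit from the median was found for 13.2% of the 28815 probe sets, against 2.35% and 3.59% in WT DSS replicates 1 and 3, 0.184% to 0.989% in the TG DSS arrays and 0.0763% to 0.316% in the 6 water arrays. The median of 14 epithelial markers was -0.09, -2.05 and 0.06 in WT DSS replicates 1, 2 and 3, from -0.19 to 0.04 in the TG DSS arrays and from -0.07 to 0.11 at water. The median of 12 macrophage markers was 1.12, 2.42 and -0.08 in WT DSS replicates 1, 2 and 3, 0.93, -0.30 and -0.15 in TG DSS replicates 1, 2 and 3, and from -0.39 to 0.20 at water. That of 13 neutrophil markers was 2.14, 3.72 and 0.32 in the same WT DSS arrays, 0.62, -0.03 and -0.05 in the TG DSS arrays and from -0.26 to 0.01 at water. In RNA from many cells, fewer cells of a type and less RNA per cell cannot be told apart. Cldn2, the gene of the transgene, stood 0.14 ± 0.44 higher in TG than in WT at water (SE, 3 arrays a group; limma adjusted p = 1), and no source used here says whether its probes can bind the RNA of the transgene.

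The first comparison asked how the clock output genes stood in WT epithelium under DSS. Nfil3 and Cry1 read higher on all 3 DSS arrays than on any water array, and Dbp and Tef read lower on all 3. Per1, Per2, Per3, Cry2 and Hlf overlapped between the groups. None of the 9 members passed an adjusted p under 0.05 in limma, where 0.171% of all genes passed. At an unadjusted p under 0.05, 2 members were higher, against 5.7% of all genes, and 2 were lower, against 9.55%. The same 4 members were those whose groups did not overlap, which held for 16.1% of all genes, 5.45% in the higher and 10.7% in the lower direction. The difference was above 0 for 3 of the 9 members, against 40.6% of all genes.

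**Figure D1:**
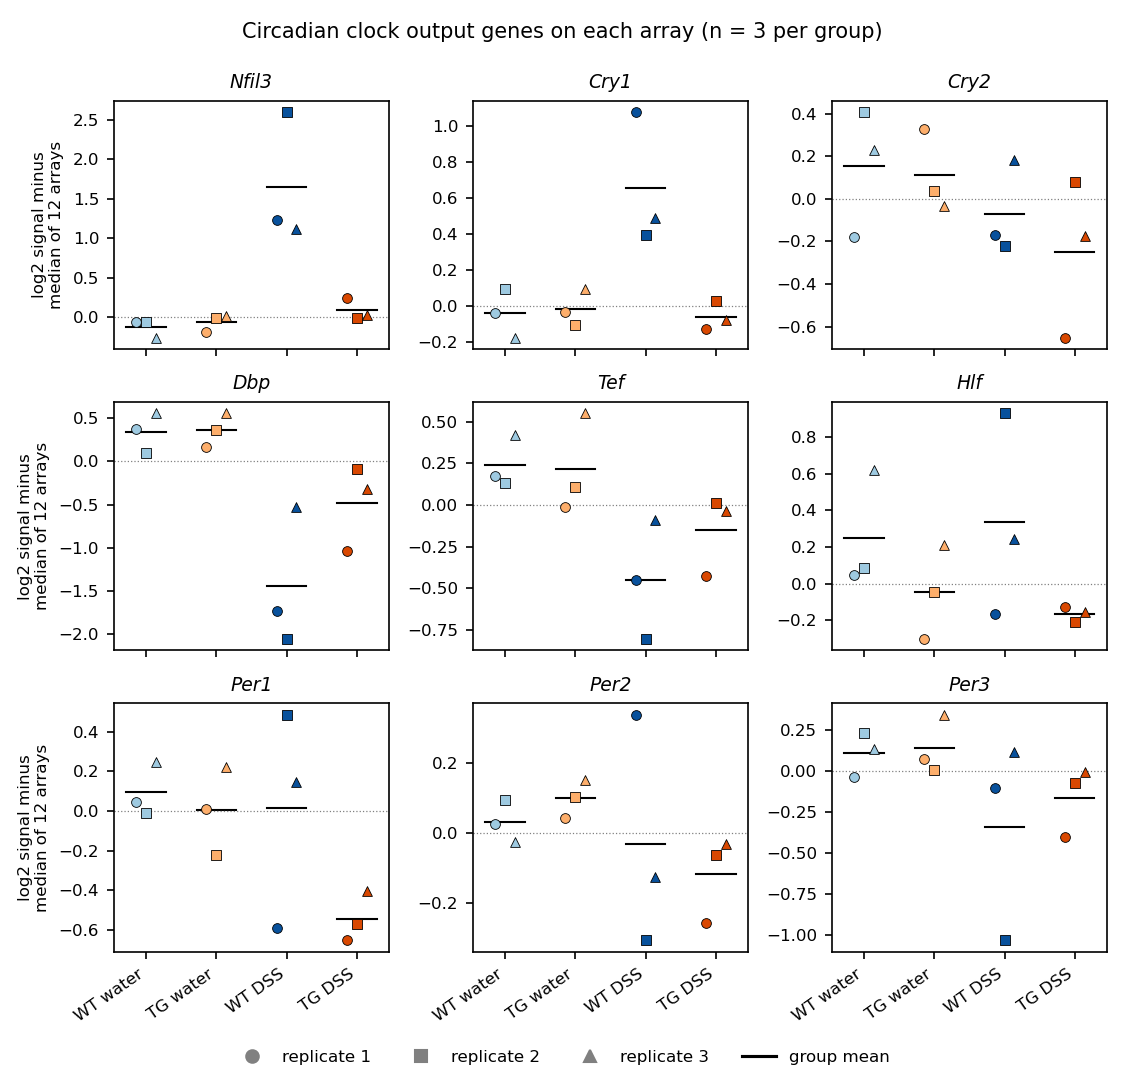
Log2 signal minus the median of the 12 arrays (vertical axis, its scale set per gene) for the 9 measured members in the 4 groups (horizontal axis). Each point is an array, with its shape giving the replicate number, and the bar is the mean of 3 arrays. Nfil3 lies between 1.11 and 2.60 in WT DSS and at most at 0.24 elsewhere, while Dbp lies below 0 on all 6 DSS arrays and above 0 on all 6 water arrays.

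Nfil3, the D-box repressor, read -0.07, -0.07 and -0.27 in WT water replicates 1, 2 and 3 and 1.23, 2.60 and 1.11 in WT DSS replicates 1, 2 and 3. Every WT DSS array stood more than 1 log2 unit above every WT water array. The log2 difference was 1.78 ± 0.32 (SE, 3 arrays in each group), or 3.44-fold, with an adjusted p of 0.0618 in limma. Like every SE given, this one comes from the limma fit, which takes 1 variance per gene over all 4 groups. The standard deviation of Nfil3 was 0.83 in WT DSS and 0.11 to 0.14 in the other groups. The SE does not show that unequal spread. Nfil3 did not pass the threshold with all arrays, and it passed when any 1 of the 3 WT DSS arrays was left out. Without WT DSS replicate 1, 2 or 3 its difference was 1.99, 1.30 and 2.05, with limma adjusted p-values of 0.0119, 0.00962 and 0.0187, in fits where 4.61%, 0.461% and 2.88% of all genes passed. Without an array of another group its limma adjusted p lay between 0.0645 and 0.259. In the remaining alternative fits the limma adjusted p of Nfil3 reached 0.4895. No gene passed with only the 2 groups compared, with weights per group or with the replicate block.

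Cry1, a repressor of the CLOCK and BMAL1 pair, followed Nfil3 with a smaller difference. It read -0.04, 0.10 and -0.17 in WT water replicates 1, 2 and 3 and 1.08, 0.40 and 0.49 in WT DSS replicates 1, 2 and 3. Here replicate 1 was the highest DSS array, whereas replicate 2 was the highest for Nfil3. The difference was 0.69 ± 0.16 (SE, 3 arrays a group; 1.62-fold; limma adjusted p = 0.102). Cry1 passed only without WT DSS replicate 1 among the fits that left out 1 array, at 0.48 (limma adjusted p = 0.0375). In that fit 4.61% of all genes passed. Its paralogue Cry2 read from -0.18 to 0.41 in WT water and from -0.22 to 0.18 in WT DSS, which overlap, and differed by -0.22 ± 0.21 (limma adjusted p = 0.67).

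Dbp, the D-box activator, had the largest negative difference of the 9 members. It read 0.38, 0.09 and 0.56 in WT water replicates 1, 2 and 3 and -1.73, -2.06 and -0.53 in WT DSS replicates 1, 2 and 3. All DSS arrays lay below 0 and all water arrays above it, with replicate 3 the nearest to water. The difference was -1.78 ± 0.37 (SE, 3 arrays a group; 0.291 times the water signal; limma adjusted p = 0.0765). Among the 12 fits that left out 1 array, Dbp passed only without WT DSS replicate 3, at -2.24 (limma adjusted p = 0.00795). In that fit 2.88% of all genes passed. In the others the limma adjusted p of Dbp reached 0.296.

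Of the other PAR bZIP activators, Tef separated the groups and Hlf did not. Tef read 0.17, 0.13 and 0.42 in WT water replicates 1, 2 and 3 and -0.45, -0.80 and -0.09 in WT DSS replicates 1, 2 and 3, in the same order of arrays as Dbp. It differed by -0.69 ± 0.21 (SE, 3 arrays a group; limma adjusted p = 0.174). Hlf read 0.05, 0.08 and 0.62 at water and -0.17, 0.93 and 0.24 under DSS. Its groups overlapped widely, with the highest value on the array where Dbp and Tef were lowest, and the difference was 0.09 ± 0.26 (limma adjusted p = 0.919). The sign of the Hlf difference turned without WT DSS replicate 2, to -0.21.

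The Per genes, whose proteins join CRY in the repressor complex, overlapped between WT water and WT DSS. Per1, which many signals beside the clock induce, read 0.05, -0.01 and 0.25 in WT water replicates 1, 2 and 3 and -0.59, 0.49 and 0.15 in WT DSS replicates 1, 2 and 3. DSS replicates 1 and 2 thus lay on opposite sides of the water arrays. The mean difference of Per1 was -0.08 ± 0.23 and turned to 0.22 without WT DSS replicate 1. Per2 read from -0.02 to 0.09 in WT water and 0.34, -0.31 and -0.13 under DSS, for a difference of -0.06 ± 0.14 that turned to 0.08 without WT DSS replicate 2. Per3 read from -0.03 to 0.24 in WT water and -0.10, -1.04 and 0.12 under DSS, for a difference of -0.45 ± 0.26 that was -0.10 without WT DSS replicate 2. The limma adjusted p-values of Per1, Per2 and Per3 were 0.913, 0.886 and 0.431.

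**Figure D2:**
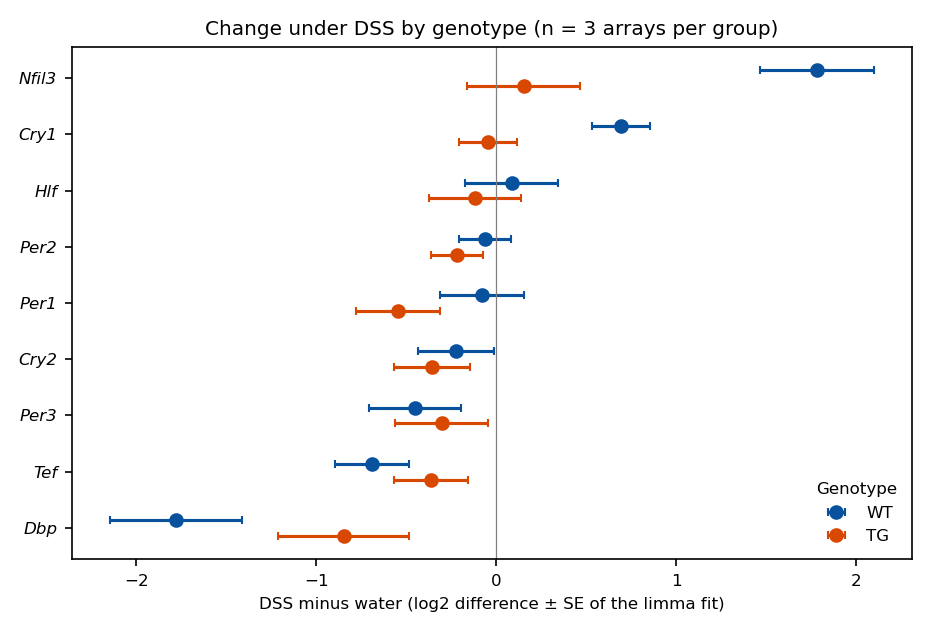
DSS minus water in WT and in TG for each measured member (horizontal axis, log2 difference; points are the limma estimates and bars their SE, n = 3 arrays per group). In WT the estimates run from -1.78 for Dbp to 1.78 for Nfil3, and in TG from -0.85 for Dbp to 0.15 for Nfil3.

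WT DSS replicate 3 was the WT DSS array whose epithelial and macrophage markers lay within or next to the range of the water arrays, at 0.06 and -0.08. Its neutrophil markers lay above that range, with a median of 0.32 against -0.26 to 0.01 at water. On that array Nfil3 read 1.11, beside 1.23 and 2.60 in WT DSS replicates 1 and 2, and Cry1 read 0.49, beside 1.08 and 0.40. Dbp read -0.53 and Tef -0.09 there, nearer to water than on either other WT DSS array. T and NK cell markers had a median of 0.65 on that array, beside 0.20 and 0.65 in WT DSS replicates 1 and 2 and from -0.29 to 0.14 at water. On WT DSS replicate 2, where epithelial markers were lowest, Nfil3 had its highest value, 2.60, and Dbp, Tef and Per3 their lowest. The median of 9 endothelial markers was 0.76, 3.08 and -0.28 in WT DSS replicates 1, 2 and 3 and that of 9 fibroblast markers 1.09, 2.26 and -0.29, against -0.27 to 0.23 and -0.50 to 0.13 at water. The median of 8 smooth muscle markers was -1.13, 0.63 and 0.07 on those arrays and -0.70 to 0.23 at water, and that of 5 B and plasma cell markers 1.57, -0.01 and -1.44 against -1.34 to 0.60. The part of cell makeup in the members' values was not tested.

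The second comparison asked the same of TG epithelium. Under DSS, Dbp and the 3 Per genes read lower on all TG DSS arrays than on any TG water array, whereas Nfil3 and Cry1 overlapped with water. No member passed in limma, as no gene of the 19935 did (0%), and at an unadjusted p under 0.05 there were 2 members, Dbp and Per1, both lower. Of all genes 2.38% had such a p, 1.21% higher and 1.17% lower. The groups did not overlap in the lower direction for 4 of 9 members, against 6.64% of all genes. No member was non-overlapping in the higher direction, against 6.76%. The difference was above 0 for 1 of 9 members, Nfil3, against 46.2% of all genes.

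Dbp read 0.16, 0.37 and 0.56 in TG water replicates 1, 2 and 3 and -1.04, -0.09 and -0.32 in TG DSS replicates 1, 2 and 3. The difference was -0.85 ± 0.37 (SE, 3 arrays a group; 0.555 times the water signal; limma adjusted p = 1), and without TG DSS replicate 1 it was -0.57. TG DSS replicate 1, the lowest for Dbp, was also the TG array with macrophage markers at 0.93 and neutrophil markers at 0.62. In TG DSS replicates 2 and 3 the macrophage medians were -0.30 and -0.15, the neutrophil medians -0.03 and -0.05, and Dbp read -0.09 and -0.32. The part of those cells in the Dbp values was not tested. Over both genotypes, Dbp was the 1 of 9 members for which all 6 DSS arrays lay below all 6 water arrays, a separation found in 0.461% of all genes.

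Per1 in TG read 0.01, -0.22 and 0.22 at water and -0.65, -0.57 and -0.40 under DSS. The 3 TG DSS arrays lay close together, while the WT DSS arrays spread from -0.59 to 0.49, and the difference was -0.55 ± 0.23 (SE, 3 arrays a group; limma adjusted p = 1). Per3 read 0.07, 0.01 and 0.35 at water and -0.40, -0.07 and -0.01 under DSS, a difference of -0.30 ± 0.26. Per2 read 0.04, 0.10 and 0.15 at water and -0.26, -0.06 and -0.03 under DSS, a difference of -0.22 ± 0.14. For Per2 and Per3 the gap between the groups was small, with the nearest arrays of each less than 0.1 apart.

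Nfil3 in TG read -0.19, -0.02 and 0.01 at water and 0.24, -0.01 and 0.03 under DSS, so only replicate 1 stood out. The difference was 0.15 ± 0.32 (SE, 3 arrays a group; 1.11-fold; limma adjusted p = 1). Cry1 in TG read -0.03, -0.10 and 0.10 at water and -0.13, 0.03 and -0.08 under DSS, a difference of -0.04 ± 0.16. Tef differed by -0.36 ± 0.21, Cry2 by -0.36 ± 0.21 and Hlf by -0.12 ± 0.26, and their groups overlapped. Tef was -0.20 without TG water replicate 3 and -0.23 without TG DSS replicate 1, and Cry2 was -0.16 without TG DSS replicate 1. The limma adjusted p was 1 for each of these members in TG.

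The genotypes were then compared directly. At water, the differences of the 9 members between TG and WT lay between -0.30 and 0.07, with 5 of 9 above 0, against 54.7% of all genes. None passed in limma, where 0% of all genes did, none had an unadjusted p under 0.05, against 0.306% of all genes, and the groups overlapped for all 9, while 4.98% of all genes did not overlap. Under DSS, Nfil3 stood 1.56 ± 0.32 lower in TG than in WT (SE, 3 arrays a group; difference of -1.56; limma adjusted p = 0.101) and Cry1 0.71 ± 0.16 lower (difference of -0.71; limma adjusted p = 0.123). For both, all TG DSS arrays lay below all WT DSS arrays, as 4.9% of all genes did, and 19% of all genes did not overlap in either direction. Dbp stood 0.95 ± 0.37 higher in TG (limma adjusted p = 0.254) and Tef 0.30 ± 0.21 higher (limma adjusted p = 0.488), and their DSS groups overlapped. In limma 0.0401% of all genes passed in this comparison and 0 members, with 4 members, Per1, Dbp, Nfil3 and Cry1, at an unadjusted p under 0.05 against 15.9% of all genes. Of these 4, Dbp was higher in TG, against 10.3% of all genes, and the others lower, against 5.63%. Per1 stood 0.56 ± 0.23 lower (difference of -0.56; limma adjusted p = 0.289), its DSS groups overlapped, and without WT DSS replicates 2 and 3 the difference was 0.049. Among the fits that left out 1 array, Per1 passed only without WT DSS replicate 1, at -0.86 (limma adjusted p = 0.0149). In that fit 5.85% of all genes passed. In the others the limma adjusted p of Per1 reached 0.576. Nfil3 passed without WT DSS replicate 1, 2 or 3, at -1.77, -1.09 and -1.83 (limma adjusted p = 0.0171, 0.0213 and 0.0404), in fits where 5.85%, 0.0803% and 0.823% of all genes passed.

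Whether the DSS change itself differed between the genotypes was tested as an interaction, the change in TG minus that in WT. It was -1.63 ± 0.45 for Nfil3 (SE, n = 3 arrays in each of 4 groups; limma unadjusted p = 0.00438, adjusted p = 0.797) and -0.74 ± 0.23 for Cry1 (unadjusted p = 0.00881, adjusted p = 0.797). These were the 2 members with an unadjusted p under 0.05 in the lower direction, against 1.27% of all genes. Of all genes 5.85% had such a p, 4.58% in the higher direction, and no gene passed after adjustment (0%). For Dbp it was 0.93 ± 0.52 and for Tef 0.32 ± 0.29 (limma adjusted p = 0.852 and 0.859). A difference in the DSS change between the genotypes was therefore not established for any member. Averaged over both genotypes, the DSS change was -1.31 ± 0.26 for Dbp, -0.53 ± 0.15 for Tef, 0.97 ± 0.22 for Nfil3 and 0.32 ± 0.11 for Cry1 (limma adjusted p = 0.125, 0.246, 0.187 and 0.359). None of the 9 members passed there, against 0.00502% of all genes, and 4 of 9 had an unadjusted p under 0.05 against 10.8% of all genes. Of these, Nfil3 and Cry1 were higher, against 4.01% of all genes, and Dbp and Tef lower, against 6.83%.

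**Figure D3:**
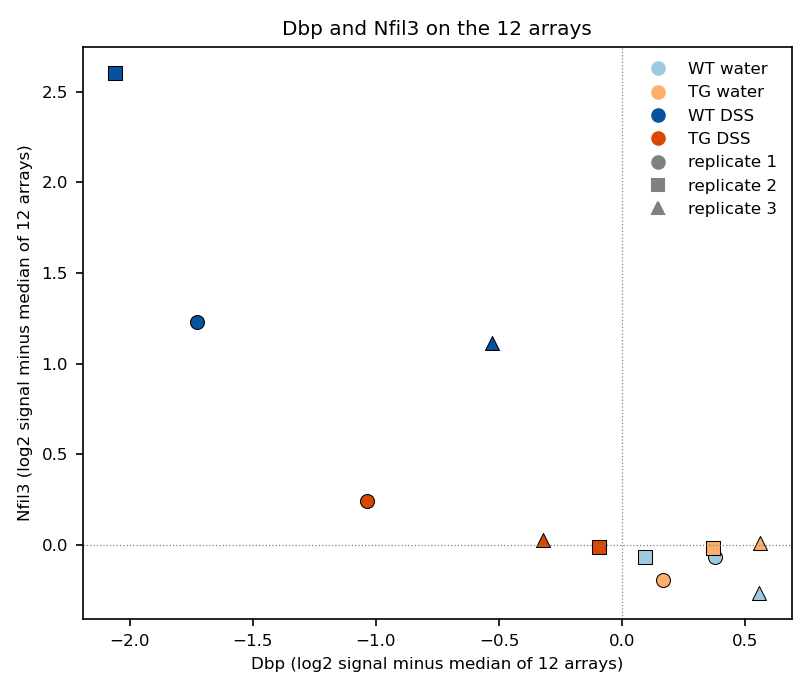
Dbp (horizontal axis) against Nfil3 (vertical axis) on each of the 12 arrays, both as log2 signal minus the median of the 12 arrays, with colour for the group and shape for the replicate number. The 6 water arrays lie to the right of 0 and the 6 DSS arrays to the left, and the 3 WT DSS arrays are the ones with Nfil3 above 1.

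The distance between the D-box repressor and the D-box activators was read off within each array. Nfil3 minus Dbp was 2.96, 4.66 and 1.64 in WT DSS replicates 1, 2 and 3 and 1.28, 0.08 and 0.35 in TG DSS replicates 1, 2 and 3. It lay between -0.82 and -0.16 in the 6 water arrays, below every DSS array. Nfil3 minus Tef was 1.68, 3.41 and 1.20 in the WT DSS arrays, 0.67, -0.03 and 0.06 in the TG DSS arrays and from -0.69 to -0.12 at water. Nfil3 minus Hlf was 1.40, 1.67 and 0.87 in the WT DSS arrays, 0.37, 0.20 and 0.18 in the TG DSS arrays and from -0.89 to 0.11 at water. These values describe unequal change of the genes on an array, since each gene is centred on its own median.

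Other genes of the clock loop were taken from a list of 15, of which 13 were measured. In WT under DSS 0 of the 13 passed in limma, against 0.171% of all genes. At an unadjusted p under 0.05 there were 6, all lower, against 9.55% of all genes, and 5 did not overlap, all lower, against 10.7%. Their median difference was -0.10, against -0.08 for the 9 members and -0.04 for all genes. Ciart, a repressor of the CLOCK and BMAL1 pair also called Chrono, read 0.60, 0.31 and 0.70 in WT water replicates 1, 2 and 3 and -1.65, -2.45 and -0.45 in WT DSS replicates 1, 2 and 3. That is the order of arrays seen for Dbp, and the difference was -2.05 ± 0.43 (SE, 3 arrays a group; limma adjusted p = 0.0809). In TG, Ciart read 0.37, 0.16 and 0.62 at water and -1.22, -0.16 and -0.50 under DSS (difference -1.01 ± 0.43; limma adjusted p = 1). Like Dbp, Ciart had all 6 DSS arrays below all 6 water arrays. Its promoter window held 3 E-boxes, 116, 58 and 44 bases before its start. The promoter table held 18 windows of 11 genes of this list. Of these, 2 windows (11.1%) held an E-box, against 6.02% of all windows, and for Nr1d1 an E-prime-box but no E-box was found.

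Nr1d1, which encodes REV-ERB alpha, read 0.42, 0.03 and 0.20 in WT water and -1.82, -1.01 and -0.17 in WT DSS replicates 1, 2 and 3 (difference -1.22 ± 0.33; limma adjusted p = 0.141). Its lowest array was replicate 1, not replicate 2. Nr1d2, which encodes REV-ERB beta, differed by -0.55 ± 0.17 and Bhlhe41, a repressor at E-boxes, by -0.55 ± 0.17 (limma adjusted p = 0.178 and 0.185). Of the activators at the head of the loop, Arntl differed by 0.33 ± 0.24 and Clock by -0.38 ± 0.15 in WT (limma adjusted p = 0.547 and 0.262), with the WT DSS values of Clock below all WT water values and those of Arntl overlapping. In TG, Nr1d1 differed by -0.42 ± 0.33, Nr1d2 by -0.30 ± 0.17, Bhlhe41 by -0.04 ± 0.17, Arntl by 0.31 ± 0.24 and Clock by 0.06 ± 0.15 (limma adjusted p = 1 for each). The mean of Bhlhe41 was 0.48 in WT water and -0.03 in TG water, beside -0.07 in both DSS groups. Between the water groups, Bhlhe41 was the 1 of the 13 with a limma unadjusted p under 0.05, against 0.306% of all genes, 0.13% in the lower direction. Its TG water arrays lay below its WT water arrays. Of all genes 4.98% did not overlap there, 3.05% in the lower direction, and no gene passed after adjustment (0%). In TG under DSS 1 of the 13, Ciart, had an unadjusted p under 0.05, and it was lower, against 1.17% of all genes.

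**Figure D4:**
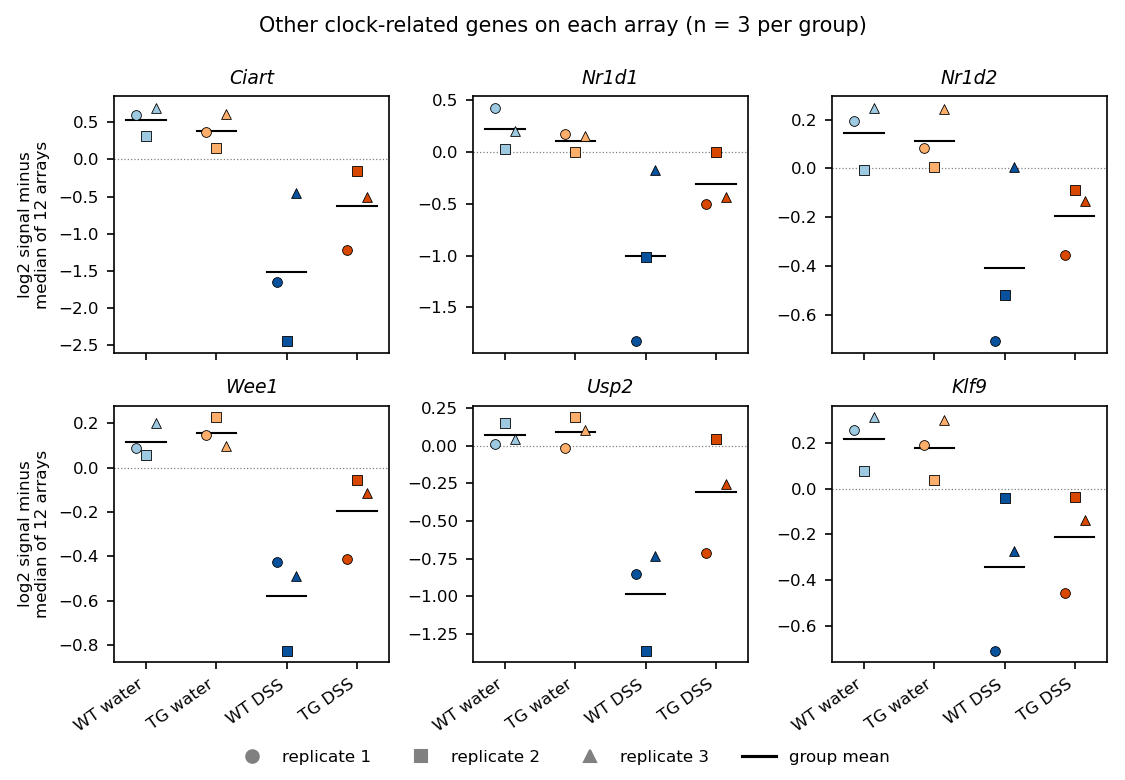
Log2 signal minus the median of the 12 arrays (vertical axis, its scale set per gene) for 6 genes outside the set in the 4 groups (horizontal axis), with points for arrays, shapes for replicate numbers and bars for means of 3 arrays. Ciart, Wee1 and Klf9 lie below 0 on all 6 DSS arrays and above 0 on all 6 water arrays.

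Genes known to be driven by the clock outside the loop formed a list of 7, of which 6 were measured. In WT under DSS 0 of 6 passed in limma, against 0.171% of all genes. At an unadjusted p under 0.05, 2 were lower, against 9.55% of all genes, and 2 higher, against 5.7%, and the median of the list was -0.26. Wee1, a kinase that holds back entry into mitosis, read 0.09, 0.06 and 0.20 in WT water and -0.43, -0.82 and -0.49 in WT DSS replicates 1, 2 and 3. Its WT DSS arrays were closer together than those of Dbp, and the difference was -0.70 ± 0.13 (SE, 3 arrays a group; limma adjusted p = 0.0618). In TG, Wee1 differed by -0.35 ± 0.13 (limma adjusted p = 1), and over both genotypes its 6 DSS arrays lay below its 6 water arrays. Usp2, a deubiquitinase, differed by -1.05 ± 0.20 in WT (limma adjusted p = 0.067) and by -0.40 ± 0.20 in TG (limma adjusted p = 1). Alas1, the first enzyme of haem synthesis, and Nampt, an enzyme of NAD synthesis, stood higher in WT by 0.45 ± 0.15 and 0.36 ± 0.12 (limma adjusted p = 0.204 and 0.223).

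Per1 is also a target of glucocorticoid hormones, so 7 glucocorticoid response genes were set beside it, and all 7 were measured. In WT under DSS 0 of 7 passed in limma, against 0.171% of all genes. At an unadjusted p under 0.05, 2 were higher, against 5.7% of all genes, and 1 lower, against 9.55%, and the median of the list was 0.48. Dusp1, a phosphatase of MAP kinases, stood at 1.47 ± 0.55, Fkbp5, a co-chaperone of the glucocorticoid receptor, at 0.65 ± 0.28 and Errfi1 at 0.48 ± 0.26 (limma adjusted p = 0.258, 0.312 and 0.398). Klf9, a transcription factor that is both clock-driven and hormone-induced, stood at -0.56 ± 0.17 (limma adjusted p = 0.178). In TG all 7 differences were below 0, with a median of -0.25, and 0 passed in limma, as no gene did (0%). At an unadjusted p under 0.05, 2 were lower, Sgk1 and Klf9, against 1.17% of all genes. For TG against WT under DSS the median of the list was -0.92, and 0 of 7 passed in limma, against 0.0401% of all genes. At an unadjusted p under 0.05, 5 were lower in TG, against 5.63% of all genes, and 3 did not overlap, all lower, against 4.9%. In the interaction 0 of 7 had such a p, against 5.85% of all genes.

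The genes nearest to Dbp and to Nfil3 over the 12 arrays were found by the mean absolute difference of their values from the member's, among all genes outside the set. Nearest to Dbp was Ciart, at a mean distance of 0.17 log2 units, followed by Slc2a5, the fructose transporter, Lgr5, a stem cell receptor of the crypt base, and Otc, a urea cycle enzyme, at 0.24, 0.24 and 0.25. The mean distance of Dbp itself from 0 was 0.66. Nearest to Nfil3 were Pim1, a kinase induced by cytokines, at 0.14, Chst11, a sulfotransferase of chondroitin, at 0.15, and Il4ra, a receptor chain for interleukin 4, and Prdm1, a transcriptional repressor, both at 0.16, where Nfil3 itself lay 0.49 from 0. Both members had their values farthest from 0 on WT DSS arrays. Within the set, the nearest members were Per3 and Tef, at 0.16. This distance is also small where both genes stay near 0. Over the 12 arrays Per3 ran from -1.04 to 0.35 and Tef from -0.80 to 0.55, against -2.06 to 0.56 for Dbp.

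**Figure D5:**
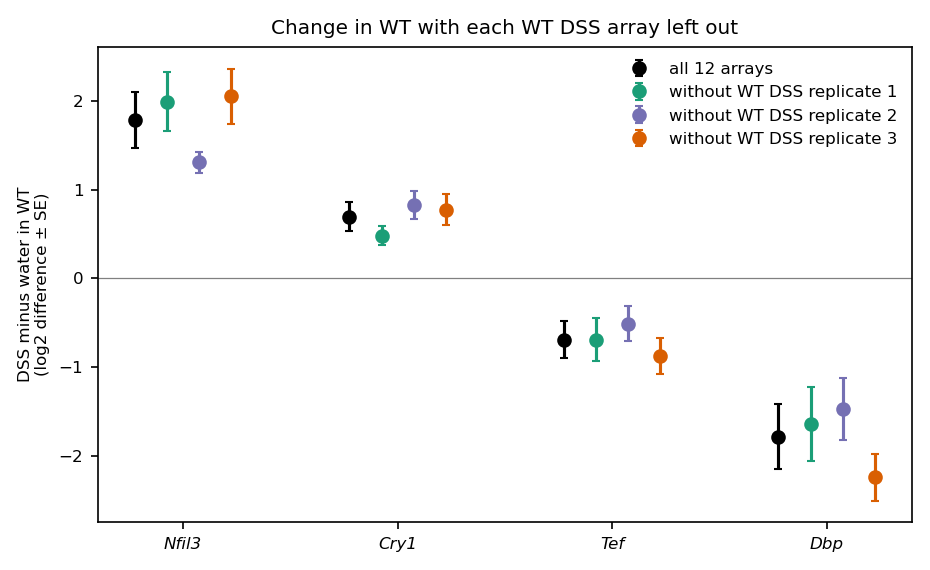
DSS minus water in WT (vertical axis, log2 difference; points are limma estimates and bars their SE) for 4 members, with all 12 arrays and with each WT DSS array left out in turn. Nfil3 stays between 1.30 and 2.05, Cry1 between 0.48 and 0.82, Tef between -0.87 and -0.51 and Dbp between -2.24 and -1.47.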

How the data were processed

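The deposited table gives 28815 probe sets a log2 value per array, made with RMA in Affymetrix Expression Console per the submitters' processing notes, which name no versions. The log base was taken as 2, the scale RMA returns. Each probe set's median over the arrays was 0 to within 5e-07, a centring found from the values, so no filter on dim probe sets was possible and precision is limited by the number of arrays. Probe sets with 1 symbol (21780; 1605 had several and 5430 none) were averaged into 19935 genes; each measured member had 1 probe set.

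The model in limma 3.58.1 (R 4.3.3; lmFit, eBayes) had a mean for each of the 4 groups over the 12 arrays (8 residual degrees of freedom), tested on simulated data, with two-sided p-values adjusted by Benjamini-Hochberg over all genes and called under 0.05. An exact permutation test of 3 against 3 arrays cannot go below 0.1 and was not used. The 10 members were named throughout, with Clock, Arntl, Nr1d1, Nr1d2, Cldn2, up to 4 genes of each of 3 further lists by smallest p in WT, and the 4 genes nearest to Dbp and to Nfil3; Sgk1 was named after its values were seen. Members and lists were chosen with earlier results of these data known. Promoters came from RefSeq (GRCm38.p6), which matched 9 of 10 members. Figures used Python 3.11.15 and matplotlib 3.10.9.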

Additional observations from a re-analysis of the deposited data

How the results depend on the processing

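With all arrays no member passed in any of the 6 comparisons, and the number passing depended on which arrays were fitted. For DSS in WT, 1 member passed with every probe set on its own (where 0.482% of 21780 probe sets passed), 3 with weights per array, 2 at an adjusted p under 0.1, 3 without WT DSS replicates 2 and 3 together and 0 to 2 when 1 array was left out. For TG against WT under DSS, 2 passed with weights per array, 2 without WT DSS replicates 2 and 3 together and 0 to 3 when 1 array was left out, 3 of them without WT DSS replicate 1. For the interaction, 1 passed with weights per array (Nfil3) and 1 without WT DSS replicates 2 and 3 together (Cry1). For DSS averaged over the genotypes, 4 passed with weights per array, 4 without WT DSS replicates 2 and 3 together and 0 to 1 when 1 array was left out. Leaving out WT DSS replicates 2 and 3 keeps 1 WT DSS array, assumed to vary like the other groups. Over all genes, the number passing for DSS in WT was 34, against 754 with weights per array, 276 at an adjusted p under 0.1, 158 without WT DSS replicates 2 and 3 together, 0 with the 2 groups alone, weights per group or the replicate block, and 0 to 919 leaving out 1 array. For TG against WT under DSS it was 8, against 273, 110, 56, 0 and 0 to 1166 in the same order, and 4 with each array centred on its median. At water it was 0, against 1971 with weights per array. For DSS averaged over the genotypes it was 1, against 944 with weights per array, 38 at an adjusted p under 0.1, 171 without WT DSS replicates 2 and 3 together, 0 with the replicate block and 0 to 315 leaving out 1 array. For the interaction it was 0, against 12 with weights per array, 22 without WT DSS replicates 2 and 3 together and 0 to 239 leaving out 1 array, and for DSS in TG 0, against 4 with weights per array. No member passed with robust eBayes, with each array centred on its median, with weights per group or with only the 2 groups compared.

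Signs turned for Per2 in WT (0.17 with weights per array, 0.31 without WT DSS replicates 2 and 3 together, -0.25 to 0.076 leaving out 1 array), Hlf in WT (-0.088, -0.42, and -0.21 to 0.34), Per1 in WT (-0.32 to 0.22 leaving out 1 array), Hlf in TG (-0.25 to 0.010), Per1 for TG against WT under DSS (0.049 without WT DSS replicates 2 and 3 together) and Cry1 in TG (0.040 with weights per array, -0.089 to 0.0096 leaving out 1 array). The cause was not tested. In some alternative the sign turned for 6 of 9 members at water, for 5 for TG against WT under DSS (Cry2, Hlf, Per1, Per2 and Per3), for the same 5 in the interaction and for 2, Hlf and Per2, in the average over the genotypes. Replicate numbers did not pair the arrays: deviations of same-numbered arrays correlated between -0.484 and 0.377, and at most 2 of 6 arrays in a comparison correlated best with their own number. With the replicate block 0 members passed in each comparison.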
